A study of Mus musculus with 16 samples.

Results

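EBRTcH3, the parental mouse embryonic stem cell (ESC) line of the study, was compared with 3 lines made from it by deleting Mbd3 and then restoring a single protein isoform, Mbd3a, Mbd3b or Mbd3c. The comparison used 8 of the 16 arrays, 2 of EBRTcH3 and 6 of the rescued lines, and asked which genes differed from the parental line after MBD3 had been put back. Each line was measured once in medium with LIF, the cytokine that keeps mouse ESCs undifferentiated, and once after 12 days without it. EBRTcH3 is a male line of strain 129SV that served as wild type. The rescued lines carry a deletion that removes all 3 Mbd3 isoforms and a stably introduced expression vector for 1 of them. The other 4 derived lines carry the same deletion with an empty vector or with Mbd3a lacking its methyl-CpG-binding domain (deltaMBD), its coiled coil (deltaCC) or both, and their 8 arrays are given beside the results for comparison. The labels do not say whether the derived lines come from 1 knockout clone. EBRTcH3 therefore stands alone on one side, and its MBD3 source, its lack of a vector and its history as a line cannot be told apart.

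MBD3 is a subunit of NuRD, a chromatin complex that joins a nucleosome remodeller of the CHD family to histone deacetylases. NuRD lowers the activity of many promoters and enhancers, and ESCs without MBD3 keep renewing themselves and exit pluripotency poorly when LIF is withdrawn. The isoforms differ at the amino-terminal end, which holds the methyl-CpG-binding domain.

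All values are log2 expression values, so a difference of 1 is a 2-fold change, and each difference is EBRTcH3 minus the rescued lines with its standard error from the fit over 8 arrays. Array medians lay between 4.72 and 4.85 and the correlation between any 2 of the 16 arrays between 0.971 and 0.995. The cells carried the defining transcripts of ESCs with LIF: Pou5f1 stood at 12.50 in EBRTcH3 and at 12.29 to 12.48 in the rescues, and Nanog at 11.88 and at 11.37 to 11.79. Without LIF EBRTcH3 lay outside the rescues for several markers: Pou5f1 read 11.93 against 12.14 to 12.28, Zfp42, another pluripotency marker, 10.41 against 10.79 to 11.07, and Gata6, an endoderm regulator, 6.70 against 5.17 to 5.86. For others it lay within them: Nanog read 10.46 against 10.28 to 10.64, and Gata4, also of endoderm, 7.08 against 6.83 to 7.30. Thy1, a fibroblast surface antigen that would mark feeder cells, read 7.45 in EBRTcH3 and 7.03 to 7.33 in the rescues with LIF, and Dcn, the fibroblast proteoglycan, 3.29 and 3.08 to 3.65. The 5 tested feeder genes averaged 5.15 in EBRTcH3 and 4.93 to 5.29 in the rescues with LIF, and 6.44 and 5.95 to 6.09 without LIF. The part of feeder cells in the results was not tested.

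Mbd3 itself was near the parental level in the rescues. With LIF its transcript read 9.10 in EBRTcH3 and 9.09, 9.15 and 8.65 in the lines rescued with Mbd3a, Mbd3b and Mbd3c; without LIF it read 9.17 and 8.96, 9.59 and 8.57. The Mbd3c rescue was the lowest of the 4 lines in both conditions, and the Mbd3a and Mbd3b rescues lay on both sides of EBRTcH3. The mean difference was 0.13 ± 0.23 (SE; limma, adjusted p = 0.858), and the rescued lines were above the empty vector line, which read 7.00 and 7.45, by 1.78 ± 0.25 (limma, adjusted p = 0.00459). The positions of the probes relative to the deletion and the vector's Mbd3 sequence were not read, so the values may combine transcript left in the knockout with that of the vector. None of the 20 tested genes next to Mbd3 on chromosome 10, 10 on each side, passed the test, and their differences ran from -0.19 for Plk5 to 0.41 for Reep6.

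Of 21328 autosomal genes tested, 258 (1.21%) differed between EBRTcH3 and the rescued lines at an adjusted p under 0.05 (limma, Benjamini-Hochberg over all genes tested, condition as a block). Of these, 49 (0.23% of the genes tested) were higher in EBRTcH3 and 209 (0.98%) lower. Only 51 reached a 2-fold change, 6 higher and 45 lower, and 43 of those 45 were small nucleolar RNA (snoRNA) genes of 1 cluster on chromosome 7. All 258 had the EBRTcH3 array above all 3 or below all 3 rescued arrays in both conditions, which held for 4621 genes (21.7%) of those tested. The median difference over all genes tested was 0.03. The calls depended on single lines: without the Mbd3a, the Mbd3b or the Mbd3c rescue, 0, 1 and 0 genes passed limma's adjusted test, while 3413, 2256 and 2406 had an unadjusted p under 0.05. The direction of the 258 differences could not change in these 3 fits, because EBRTcH3 lay on the same side of every rescued array in both conditions. Leaving out 1 rescued array gave 2 calls (without Mbd3b, no LIF), 3 (Mbd3a, no LIF), 8 (Mbd3c with LIF) and 16 (Mbd3c, no LIF). It gave 24 calls without Mbd3b with LIF and 82 without Mbd3a with LIF. In the same order, 2, 3, 8, 15, 22 and 62 of these calls were among the 258. Leaving out an EBRTcH3 array leaves 1 on that side, and no count is given for those fits. Each p-value rests on 1 parental line, and measures the spread between these arrays rather than between independently made lines.

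The calls were not spread evenly over the genome. Chromosome 8 held 60 of them among 1145 genes tested (5.24%), chromosome 14 held 65 among 928 (7.00%) and chromosome 7 held 55 among 1759 (3.13%), whereas each of the other autosomes held between 2 and 8. The 60 on chromosome 8 were 59 lower and 1 higher in EBRTcH3, and the 65 on chromosome 14 were 64 lower and 1 higher. On chromosome 7, 53 of the 55 were snoRNA genes of the cluster that follows Ube3a. Outside chromosome 8, a long stretch of chromosome 14 and the snoRNA cluster, 102 genes were called, 48 of them higher in EBRTcH3 and 54 lower. These 102 still included 22 genes on the rest of chromosome 14, 21 of them lower, and 7 on chromosome 15, all higher. With chromosome 8, the long chromosome 14 stretch and the snoRNA cluster left out of the table altogether, 23 genes passed, 11 higher and 12 lower.

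Chromosome 8 was lower in EBRTcH3 along its length. The median difference of its genes was -0.12, or -0.16 over the 938 genes above the 60th percentile of signal, of which 80.6% were lower in EBRTcH3. Set against each rescued array in turn, the median was -0.09 for both the Mbd3b and the Mbd3c rescue and -0.15 for the Mbd3a rescue with LIF, and -0.20, -0.11 and -0.19 in the same order without LIF. All 6 were below 0. The 16 autosomes other than 8, 14 and 15 had medians from 0.00 to 0.06. Cut into 37 consecutive windows of about 25 genes, chromosome 8 had a negative median in all 37, from -0.31 to -0.05, so no single block carried the shift.

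On chromosome 14 the shift lay mainly in stretches of the gene order. Along the genes above the 60th percentile, a running median of 25 genes fell under -0.15 in 4 stretches, which together held 52 of the calls. The longest ran from Dhrs4 to Dgkh, with 197 genes, a median of -0.31 and 172 genes lower in EBRTcH3; 43 of the 256 genes tested in it were called, all lower. Shorter stretches held 15 genes from Arhgef40 on (median -0.41), 26 genes ending with Cmtm5 (median -0.32) and 17 genes, mostly predicted ones, nearer the start of the chromosome (median -0.50). Over the 672 tested genes outside the longest stretch the median was -0.02. The limits of these stretches were drawn from the differences themselves, and the numbers describe them without a test.

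Chromosome 15 moved the other way. Its median difference was 0.10, or 0.13 over genes above the 60th percentile, and all 27 windows were above 0, between 0.04 and 0.23. All 7 of its called genes were higher in EBRTcH3, among them Cenpm, a centromere protein, and Sqle, the squalene epoxidase of cholesterol synthesis. This chromosome was singled out after its values had been seen. Offsets of the same sign were found against the other 4 derived lines. That of chromosome 15 was only 0.01, relative to the other autosomes, against the doubly deleted line with LIF. Relative to the other autosomes, chromosome 8 was at -0.24 to -0.19 against the 6 rescued arrays and at -0.22 to -0.15 against the other 8 derived arrays. The Dhrs4 to Dgkh stretch was at -0.42 to -0.33 and -0.33 to -0.22, and chromosome 15 at 0.05 to 0.13 and 0.01 to 0.14; all of these share the 2 EBRTcH3 arrays. Copy number was not measured in these samples.

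**Figure D1:**
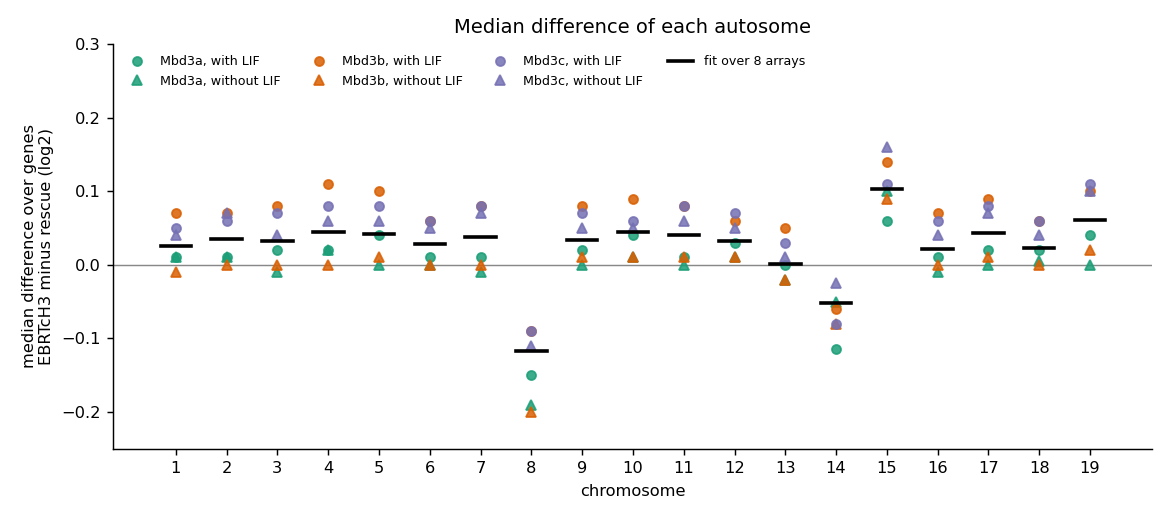
Median difference over the tested genes of each autosome (y axis, log2, EBRTcH3 minus 1 rescued array of the same condition); circles are with LIF, triangles without, and the bar is the median of the fit over 8 arrays. All 6 points lie below 0 on chromosomes 8 and 14 and above 0 on chromosome 15, and the bars of the other 16 autosomes lie between 0.00 and 0.06.

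**Figure D2:**
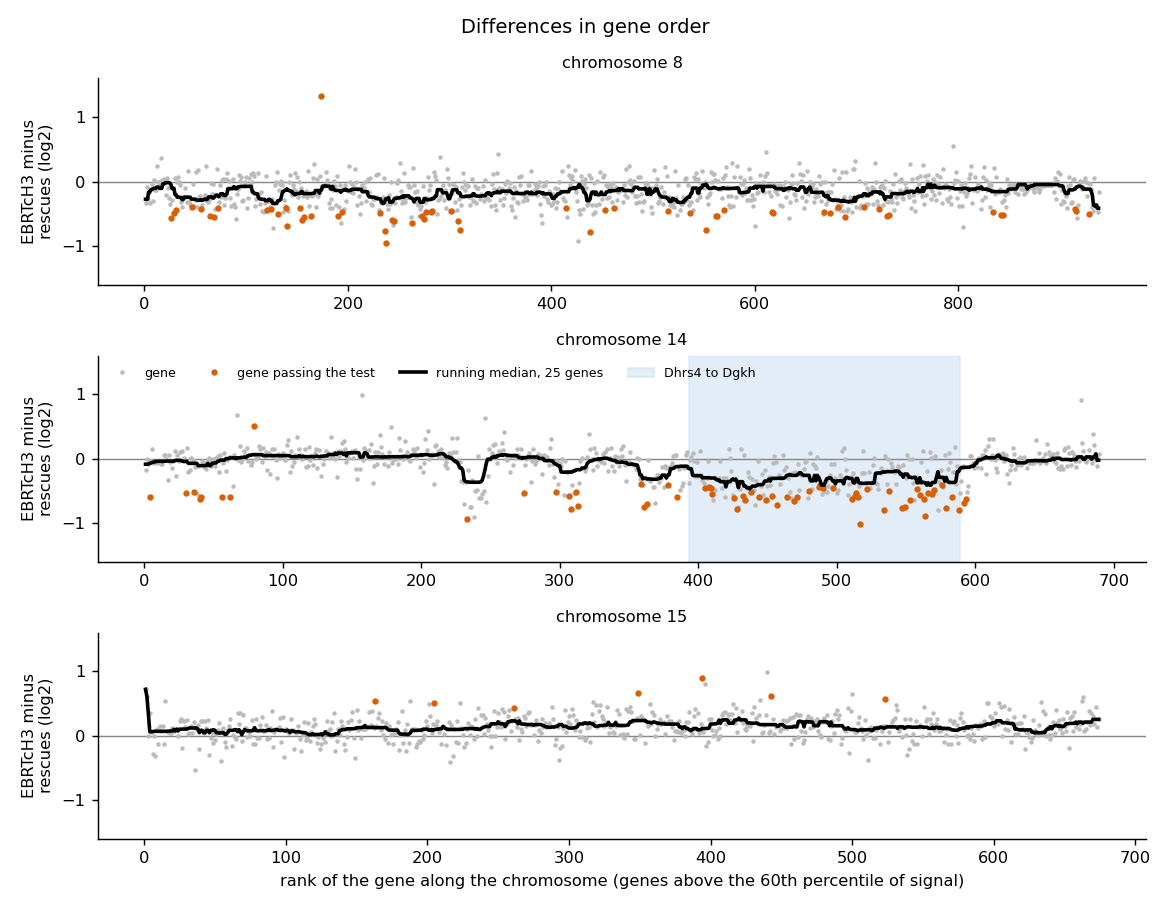
Difference of each gene above the 60th percentile of signal (y axis, log2) against its rank along chromosomes 8, 14 and 15; grey points are genes, orange points genes that passed the test, and the line is a running median of 25 genes. The line stays below 0 along most of chromosome 8, drops under -0.15 in 4 stretches of chromosome 14, of which the shaded one runs from Dhrs4 to Dgkh, and stays above 0 along most of chromosome 15.

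The genes called on chromosome 8 were mostly small shifts of abundant transcripts. The 59 lower ones had a median difference of -0.49, a 1.40-fold change, and ran from -0.39 to -0.95. They included Sap30, a subunit of the Sin3 deacetylase complex (-0.59 ± 0.11, limma, adjusted p = 0.0385), Kat6a, a histone acetyltransferase (-0.50), Wrn, the Werner helicase (-0.53), and Mcm5, part of the replicative helicase (-0.41). Mcm5 read 11.00 in EBRTcH3 and 11.31 to 11.39 in the rescues with LIF, and 10.72 and 11.10 to 11.26 without LIF. With each chromosome centred on its own median in every array, 134 genes passed, among them 129 of the 258, and 5 of the 60 on chromosome 8. With each region centred, an alternative added after the data were seen that also sets the long chromosome 14 stretch and the snoRNA block at their own medians, none of the 60 passed and 3 of the 258 did. Zfp869 then differed by -0.64 in place of -0.75 and Triml2 by -0.83 in place of -0.95.

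A few genes of chromosome 8 stood well outside its shift. Got1l1, a relative of aspartate aminotransferase, was the only called gene of the chromosome that was higher in EBRTcH3. It read 7.71 with LIF in EBRTcH3 and 6.45, 5.92 and 5.64 in the Mbd3a, Mbd3b and Mbd3c rescues, and 6.85 and 6.03, 6.08 and 5.59 without LIF. The groups did not overlap in either condition, which held for all 258 called genes. The difference for Got1l1 was 1.33 ± 0.24 (limma, adjusted p = 0.0359), or 1.45 above the median of its chromosome. With each chromosome centred on its median it passed (1.45, limma, adjusted p = 0.0448). In the region-centred fit the difference was the same and it did not pass. The other 4 derived lines read 5.32 to 6.44 with LIF and 5.30 to 6.00 without, also below EBRTcH3.

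Triml1 and Triml2, neighbouring genes for proteins of the tripartite-motif-like family, known from early embryos, were both lower in EBRTcH3. Triml2 read 10.00 with LIF in EBRTcH3 and 10.66, 10.72 and 10.61 in the 3 rescues, and 8.24 and 9.46, 9.63 and 9.33 without LIF. Triml1 read 9.61 and 10.11, 10.21 and 10.17 with LIF, and 7.41 and 8.20, 8.46 and 8.54 without LIF. Both read lower without LIF than with it in all 4 lines, and EBRTcH3 was the lowest of the 4 in both conditions. The differences were -0.95 ± 0.13 for Triml2 (limma, adjusted p = 0.0301) and -0.77 ± 0.12 for Triml1 (0.0356). With each chromosome centred on its median, Triml2 passed (-0.83, limma, adjusted p = 0.0432) and Triml1 did not (-0.65, limma, adjusted p = 0.0673). Because the 2 genes moved together, their promoters are shown from 250 bases before to 50 bases after the annotated start, from RefSeq on build GRCm38.p6, 5′ to 3′ on the gene's strand, with each CpG in capitals; Triml1 lies on the minus strand at chr8:43141437-43141736 and Triml2 on the plus strand at chr8:43180286-43180585.
Triml1: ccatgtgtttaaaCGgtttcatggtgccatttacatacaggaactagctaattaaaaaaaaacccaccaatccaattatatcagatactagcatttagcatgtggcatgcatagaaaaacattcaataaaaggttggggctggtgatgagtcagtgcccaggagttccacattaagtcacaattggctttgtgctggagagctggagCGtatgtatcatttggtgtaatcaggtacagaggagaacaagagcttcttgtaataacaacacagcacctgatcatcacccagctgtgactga
Triml2: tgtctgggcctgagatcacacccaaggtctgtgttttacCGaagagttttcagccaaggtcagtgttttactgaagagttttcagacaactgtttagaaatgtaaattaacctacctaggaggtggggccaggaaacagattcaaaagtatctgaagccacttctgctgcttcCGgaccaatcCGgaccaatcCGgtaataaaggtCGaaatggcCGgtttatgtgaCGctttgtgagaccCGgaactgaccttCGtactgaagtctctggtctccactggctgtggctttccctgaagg
The letters CG occur 2 times in the Triml1 window, a number that 85.9% of the 32851 RefSeq promoter windows of this length reach, and 9 times in the Triml2 window, which 45.8% reach. DNA methylation was not measured in these samples.

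Other genes of the same chromosome were lower by similar amounts. Hhip, the membrane antagonist of hedgehog ligands, read 8.99 with LIF in EBRTcH3 and 9.60, 10.06 and 9.60 in the rescues, and 4.74 and 5.38, 5.59 and 5.68 without LIF. The difference was -0.79 ± 0.14 (limma, adjusted p = 0.0359), and with each chromosome centred it did not pass (-0.67, limma, adjusted p = 0.0900). The larger contrast was with the other derived lines, which held Hhip at 7.39 to 7.84 without LIF, so that EBRTcH3 and the rescues lay together well below them. Sfrp1, a secreted Wnt antagonist, differed by -0.69, and the rescues minus the empty vector line gave -0.88 ± 0.15 (limma, adjusted p = 0.0106). Zfp868 and Zfp869, zinc-finger genes 2 steps apart in the order of protein-coding genes, differed by -0.61 and -0.75.

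On the Dhrs4 to Dgkh stretch the 43 called genes had a median difference of -0.58, a 1.50-fold change. Nefl, the light neurofilament chain, was the only one of them to reach 2-fold. It read 7.12 with LIF in EBRTcH3 and 7.77, 7.57 and 8.07 in the rescues, and 8.81 and 9.96, 10.05 and 10.45 without LIF. It read higher without LIF than with it in all 4 lines, and EBRTcH3 was the lowest in each condition (-1.01 ± 0.19, limma, adjusted p = 0.0414). The empty vector line, at 7.09 and 8.42, was below EBRTcH3 in both conditions.

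Lrch1, a leucine-rich repeat protein, read 7.03 with LIF and 6.13 without in EBRTcH3, against 7.72 to 7.89 and 7.00 to 7.24 in the rescues (-0.89 ± 0.10, limma, adjusted p = 0.0200). Slc39a14, a zinc and manganese transporter, and Akap11, an anchor of protein kinase A, both differed by -0.79. Zmym2, a zinc-finger partner of the LSD1 corepressor, and Mphosph8, a reader of methylated histone H3 lysine 9 in the HUSH silencing complex, differed by -0.65 and -0.78. Mphosph8 read 9.53 with LIF and 8.96 without in EBRTcH3 and 10.18 to 10.37 and 9.72 to 9.79 in the rescues. In the shorter stretch that begins with Arhgef40, the chromatin remodeller Chd8 (-0.78 ± 0.09, limma, adjusted p = 0.0200), the RNA adenosine methyltransferase Mettl3 (-0.74) and the histone chaperone subunit Supt16 (-0.59) were called in the same direction. With each chromosome centred, 16 of the 43 genes of the long stretch passed, among them Lrch1 (-0.81) and Akap11 (-0.71). With each region centred none did, and the differences were -0.69 for Lrch1, -0.82 for Nefl and -0.60 for Akap11. Sap30, Kat6a, Wrn, Sfrp1, Zfp868, Zmym2, Mphosph8, Chd8, Mettl3 and Supt16 were chosen after their values had been seen.

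The snoRNA cluster of chromosome 7 held the largest group of 2-fold changes. It lies downstream of Ube3a in the imprinted Prader-Willi and Angelman interval, where a long host transcript from the paternal allele is processed into many tandem snoRNA copies. The genes between Ube3a and Snord64 form 2 blocks separated by a gap in the annotation. In the block next to Ube3a, 133 genes were measured and 63 passed the signal filter; 53 of these were called, all lower in EBRTcH3, with differences over the 63 from -1.50 to -0.68. The 70 genes below the filter ran from -1.17 to -0.07 with a median of -0.76, and the median over all 133 was -0.86. A gene could pass the filter through the rescued arrays alone. Many copies share probe values: the 63 tested genes carry only 20 distinct sets of values, of which 13 were called, and 33 genes share 1 set. The median over the 20 sets was -1.19, and that over the 55 distinct sets of all 133 genes was -0.72. The count of 53 is therefore not a count of independent measurements.

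That shared set, listed for Gm24866 among others, read 5.39 with LIF in EBRTcH3 and 6.32, 6.02 and 6.01 in the Mbd3a, Mbd3b and Mbd3c rescues, and 4.90 and 6.71, 6.95 and 7.10 without LIF. EBRTcH3 was the lowest of the 4 lines in both conditions, with a difference of -0.73 with LIF and -2.02 without, and the difference between the conditions did not pass (limma, adjusted p = 0.193). The other 4 derived lines read 5.61 to 6.95 with LIF and 6.15 to 6.35 without, all above EBRTcH3. In the block farther from Ube3a, none of the 36 genes was called: their differences ran from 0.10 to 0.31 with a median of 0.26.

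The neighbouring transcripts of the interval did not pass the test. Snhg14, the annotated host transcript, differed by -0.37 ± 0.16 (limma, adjusted p = 0.358), Snord64 by -0.34 and Ube3a, an E3 ubiquitin ligase, by -0.18. Snhg14 read 6.84 with LIF in EBRTcH3 and 6.89 to 7.57 in the rescues, and 7.27 and 7.43 to 7.61 without LIF. For Snhg14 and Ube3a EBRTcH3 was below all 3 rescues in both conditions. Such a place above or below all 3 was held by 21.7% of all genes tested. Ndn, Magel2, Mkrn3 and Peg12, which are among the paternally expressed protein-coding genes of the interval, differed by 0.14, -0.17, -0.06 and 0.21. Ndn read 6.35 with LIF in EBRTcH3 and 5.66 to 6.37 in the rescues, and 7.42 and 7.23 to 7.78 without LIF, with overlap in both conditions. This cluster was singled out after its values had been seen.

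**Figure D3:**
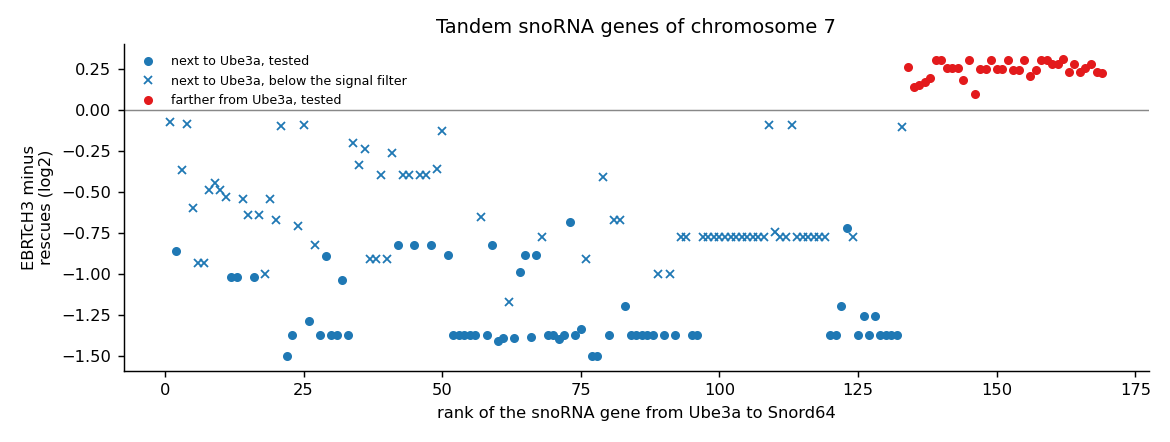
Difference of each snoRNA gene (y axis, log2, mean of EBRTcH3 minus mean of the rescued arrays) against its rank from Ube3a to Snord64; crosses are genes below the signal filter, and repeated heights are copies that share 1 set of values. The block next to Ube3a lies below 0, with tested genes between -1.50 and -0.68, and the 36 genes of the farther block lie between 0.10 and 0.31.

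In a second imprinted cluster 1 gene passed the test. In the Dlk1 to Mir409 interval of chromosome 12, maternally expressed noncoding transcripts carry many microRNAs and snoRNAs. There, 32 of 37 tested noncoding genes were higher in EBRTcH3, with a median difference of 0.32 and a range from -0.15 to 1.42. Of all genes tested, most were also higher in EBRTcH3 and 42.1% were lower. Genes carried on shared transcripts are not independent measurements. The called gene was Mir654. It read 5.50 with LIF in EBRTcH3 and 5.06, 4.94 and 4.92 in the rescues, and 5.45 and 4.84, 5.11 and 4.88 without LIF (0.52 ± 0.09, limma, adjusted p = 0.0373).

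Mir453 had the larger difference, 0.90 ± 0.30, but did not pass (limma, adjusted p = 0.204). It read 6.87 and 6.72 in EBRTcH3, and in the Mbd3a, Mbd3b and Mbd3c rescues 5.40, 6.44 and 6.04 with LIF and 5.23, 6.30 and 5.95 without. The snoRNA DQ267102 read 9.68 and 8.68 in EBRTcH3, against 7.48, 8.52 and 7.88 with LIF and 6.70, 8.22 and 7.79 without (1.42 ± 0.38, adjusted p = 0.130). For both, the Mbd3b rescue was nearest to EBRTcH3 and the Mbd3a rescue farthest in each condition, and the empty vector line was lower still, at 4.95 and 4.87 for Mir453 and at 5.57 and 5.43 for DQ267102. Dlk1 itself, the protein-coding gene at the edge of the interval, differed by 0.23 (adjusted p = 0.454). The interval was singled out after its values had been seen. The mature sequences of these 2 microRNA genes are shown from RefSeq, 5′ to 3′, with the seed (bases 2 to 8), which pairs with targets, in capitals; the 3 seeds differ. They lie on the plus strand of build GRCm38.p6 at chr12:109723235-109723256, chr12:109723270-109723291 and chr12:109735669-109735692 in this order.
mmu-miR-654-5p: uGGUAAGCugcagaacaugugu
mmu-miR-654-3p: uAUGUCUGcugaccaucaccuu
mmu-miR-453: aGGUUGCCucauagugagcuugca
The arrays were hybridized with total RNA, and whether a probe set reads the primary transcript, the hairpin or the mature form was not tested.

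Outside these regions, centring moved the differences of single genes little. For the 24 named genes outside chromosomes 8 and 14, centring each region moved no difference by more than 0.09. The adjusted p of 22 of them then lay between 0.0583 and 0.110 in limma, and 3 genes of the whole table passed, 2 higher and 1 lower. They were Inpp5d, Prdm9 and the predicted gene 8030423F21Rik, the last named for completeness after its value had been seen (-0.93 ± 0.08, limma, adjusted p = 0.00978). This predicted gene was dim, with a mean of 3.49 in EBRTcH3 and 4.42 in the rescues, below the lowest array median of 4.72. It could have passed the signal filter through the rescued arrays alone.

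Inpp5d, the inositol phosphatase SHIP1, which opposes phosphoinositide signalling, had the largest difference of all called genes. It read 10.09 with LIF in EBRTcH3 and 8.08, 8.22 and 7.95 in the Mbd3a, Mbd3b and Mbd3c rescues, and 8.59 and 6.44, 7.15 and 6.64 without LIF. All 4 lines read lower without LIF, and the gene was 3.80-fold higher in EBRTcH3 (1.93 ± 0.17, limma, adjusted p = 0.00978). The empty vector line read 8.84 in both conditions. The rescues minus the empty vector line gave -1.43 ± 0.28 (limma, adjusted p = 0.0190), with the larger gap without LIF, so that EBRTcH3 exceeded the empty vector line with LIF and was slightly below it without.

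Prdm9, the histone methyltransferase that marks meiotic recombination sites, is normally a germ cell gene. It read 6.18 with LIF and 6.20 without in EBRTcH3. The rescues read 5.19, 5.25 and 4.98 with LIF and 5.27, 5.14 and 4.98 without, and the difference was 1.06 ± 0.10 (limma, adjusted p = 0.0193). The other 4 derived lines read 4.85 to 5.07 with LIF and 4.90 to 5.12 without. EBRTcH3 was thus above all 14 derived arrays, with or without MBD3, and LIF changed little in any of them. The rescued lines differed from the empty vector line by 0.24 ± 0.11 (limma, adjusted p = 0.214).

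The promoter windows of these 2 genes are shown in the same form, since they are the named genes that passed in the region-centred fit as well. Prdm9 has 2 annotated starts on the minus strand, at chr17:15563282-15563581 and chr17:15564305-15564604, and Inpp5d 1 on the plus strand at chr1:87620062-87620361.
Prdm9, first window: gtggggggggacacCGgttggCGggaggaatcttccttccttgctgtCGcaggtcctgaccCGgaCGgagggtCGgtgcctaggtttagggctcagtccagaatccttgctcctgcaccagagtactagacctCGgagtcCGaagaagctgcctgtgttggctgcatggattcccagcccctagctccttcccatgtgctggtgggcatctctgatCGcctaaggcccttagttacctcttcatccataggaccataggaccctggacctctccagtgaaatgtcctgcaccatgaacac
Prdm9, second window: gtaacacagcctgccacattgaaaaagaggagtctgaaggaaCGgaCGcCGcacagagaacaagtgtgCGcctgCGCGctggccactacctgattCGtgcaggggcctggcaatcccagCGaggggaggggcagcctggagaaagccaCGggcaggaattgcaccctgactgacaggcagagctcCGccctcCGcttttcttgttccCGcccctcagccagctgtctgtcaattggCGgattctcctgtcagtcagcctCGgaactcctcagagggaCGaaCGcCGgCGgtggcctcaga
Inpp5d: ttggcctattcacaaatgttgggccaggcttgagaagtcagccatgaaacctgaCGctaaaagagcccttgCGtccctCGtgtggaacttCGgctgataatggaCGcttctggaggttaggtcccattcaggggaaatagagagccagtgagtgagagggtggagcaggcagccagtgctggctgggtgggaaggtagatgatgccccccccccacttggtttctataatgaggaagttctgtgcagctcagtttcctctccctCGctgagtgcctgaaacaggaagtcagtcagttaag
The Prdm9 windows hold 9 and 18 CpG, numbers that 45.8% and 29.7% of all promoter windows reach, and the Inpp5d window holds 6, which 56.4% reach.

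Calml4, a calmodulin-like light chain, and Htra1, a secreted serine protease, shared another order of lines. Calml4 read 6.05 with LIF and 6.88 without in EBRTcH3, and 5.20, 5.04 and 4.91 and then 5.50, 5.10 and 5.24 in the 3 rescues. The empty vector line was far above both, at 7.99 and 8.06. EBRTcH3 exceeded the rescues by 1.30 ± 0.15 (limma, adjusted p = 0.0200) and the rescues minus the empty vector line gave -2.86 ± 0.13 (adjusted p = 4.6e-05). Htra1 read 6.99 and 7.04 in EBRTcH3, 5.40 to 5.90 and 6.37 to 6.49 in the rescues and 8.76 and 8.48 in the empty vector line. Its differences were 0.95 ± 0.17 (limma, adjusted p = 0.0359) for EBRTcH3 minus the rescues and -2.56 ± 0.21 (adjusted p = 0.000578) for the rescues minus the empty vector line. For both genes the deltaMBD line was on the side of the rescues and the deltaCC and doubly deleted lines on the side of the empty vector. The comparison of the rescues with the empty vector line, which shares the 6 rescued arrays, called 1726 of 21316 genes (8.1%), 911 of them higher in the rescues and 815 lower; without the Mbd3a, the Mbd3b or the Mbd3c rescue it called 800, 518 and 629.

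Mtus2, a microtubule-associated protein, read 7.23 and 6.98 in EBRTcH3, and 6.39, 5.82 and 6.09 with LIF and 5.73, 6.10 and 5.61 without in the rescues (1.15 ± 0.16, limma, adjusted p = 0.0301). Its levels in the other derived lines, 6.12 to 6.75 over both conditions, were also below EBRTcH3. Tnfrsf1a, the type 1 receptor for tumour necrosis factor, differed by 0.64 with LIF and 1.31 without: it read 6.38 and 7.50 in EBRTcH3, 5.48 to 6.02 and 6.00 to 6.30 in the rescues (limma, adjusted p = 0.0385). Cenpm read 9.85 and 10.17 in EBRTcH3, above all 14 derived arrays, which read 8.87 to 9.54.

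The other 5 genes named among those higher in EBRTcH3 differed by 0.78 to 0.81. Eef2kmt, which methylates a translation elongation factor, read 8.87 and 8.56 in EBRTcH3, 7.75 to 8.03 in the rescues and 7.12 and 7.52 in the empty vector line. Cemip2, a cell-surface protein of hyaluronan breakdown, read 8.57 with LIF in EBRTcH3 and 7.47, 7.47 and 7.75 in the rescues. Alox5ap, which feeds leukotriene synthesis, Glipr2, a Golgi-associated protein, and Frmd4b, a scaffold of epithelial cells, completed the upper group, and all 3 were higher without LIF than with it in EBRTcH3 and in the rescues.

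Among the genes lower in EBRTcH3, Sema3c, a secreted semaphorin that guides migrating cells, differed most. It read 4.89 with LIF in EBRTcH3 and 6.15, 6.16 and 6.70 in the rescues, and 7.41 and 8.40, 8.44 and 8.72 without LIF. All 4 lines read higher without LIF, with EBRTcH3 lowest each time (-1.28 ± 0.16, limma, adjusted p = 0.0262). The empty vector line read 5.30 and 6.34, and the rescues were above it by 1.61 ± 0.25 (limma, adjusted p = 0.00750). EBRTcH3 lay below the empty vector line with LIF and above it without.

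Sfrp4, a secreted modulator of Wnt signalling, read 6.37 and 5.94 in EBRTcH3 and 6.91 to 7.07 and 6.95 to 7.10 in the rescues (-0.85 ± 0.12, limma, adjusted p = 0.0301). The other derived lines, at 6.50 to 7.34, were above EBRTcH3 as well. Slc6a15, a transporter of neutral amino acids, read 7.08 with LIF and 7.16 without in EBRTcH3, while the rescues read 7.45 to 7.59 with LIF and 8.19 to 8.39 without. That change of the difference with LIF did not pass (limma, adjusted p = 0.339). Zfp948, a zinc-finger gene, read 7.77 and 7.67 in EBRTcH3 and 8.42 to 8.67 and 8.32 to 8.38 in the rescues, while the empty vector line, at 7.82 and 7.09, was near or below EBRTcH3.

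Cgas, the cytosolic DNA sensor, was low in EBRTcH3, at 4.25 and 4.17, and read 4.86 to 5.11 and 4.50 to 4.76 in the rescues (-0.61 ± 0.11, limma, adjusted p = 0.0360). Both EBRTcH3 values were below the lowest array median of 4.72, and the gene could have passed the signal filter through the rescued arrays alone. Without a signal filter it did not pass (limma, adjusted p = 0.0518). Pclaf, a partner of the replication clamp PCNA, read 8.25 and 8.93 in EBRTcH3, below all 14 derived arrays. Elovl4, an elongase of very long fatty acids, differed in steps, with EBRTcH3 at 7.28 and 6.63, the rescues at 7.63 to 7.79 and 7.21 to 7.44, and the empty vector line at 8.32 and 7.98. The remaining genes named on this side, Crybg3, Cadps2, Slc16a6, Arrdc3 and Mapk4, differed by -0.71 to -0.60. Cadps2 was dim in EBRTcH3 as well, at 4.64 and 4.55, and could also have passed the filter through the rescued arrays alone.

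**Figure D4:**
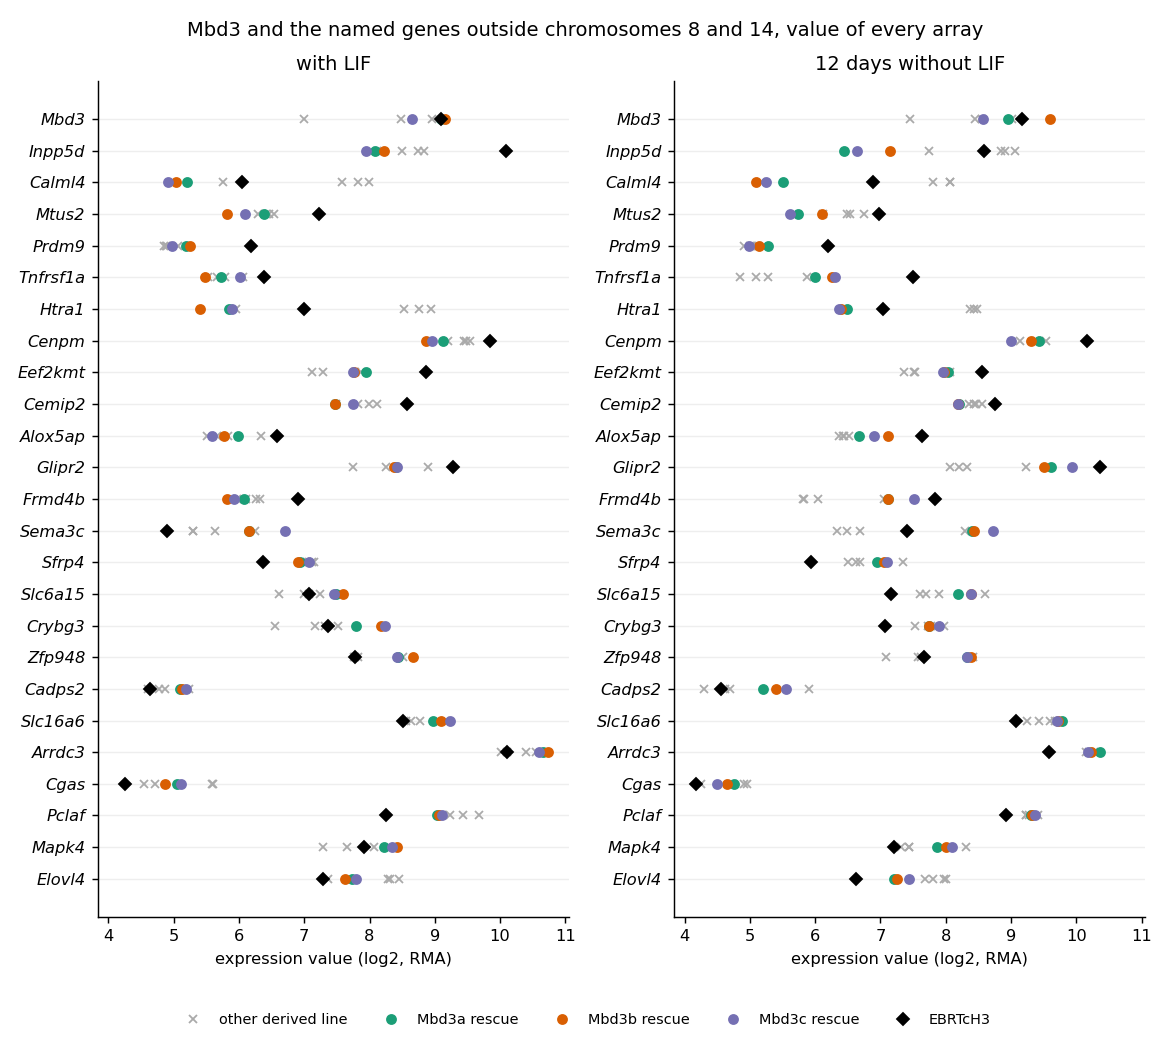
Log2 expression value (x axis) of Mbd3 and of the 12 genes with the largest difference on each side outside chromosomes 8 and 14, in every array with LIF (left) and without (right); diamonds are EBRTcH3, coloured circles the rescues and crosses the other 4 derived lines. Apart from Mbd3, the diamond lies outside the circles in both panels for every gene, as the rule for naming them required.

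The 26 gene lists, with 486 distinct genes tested, held 2 called genes (0.412% against 1.21% of all genes tested): Sqle, higher in EBRTcH3, and Mcm5, lower. Sqle lies on chromosome 15 and Mcm5 on chromosome 8. With each chromosome centred on its median neither passed (Sqle 0.45, limma, adjusted p = 0.0841, and Mcm5 -0.29, limma, adjusted p = 0.149). Sqle read 8.48 with LIF in EBRTcH3 and 7.89, 7.94 and 8.08 in the rescues, and 9.75 and 9.17, 9.14 and 9.26 without LIF (0.54 ± 0.08, limma, adjusted p = 0.0356). It was the only one of 16 tested genes of cholesterol synthesis and transport to pass, and the list's median difference was 0.19. No pluripotency gene passed: the 26 tested had a median of 0.00 and ran from -0.36 for Klf2 to 0.62 for Tbx3. The 13 NuRD subunits ran from -0.24 for Gatad2a to 0.36 for Mta3, and the 14 genes of the DNA methylation machinery from -0.41 for Dnmt3a to 0.29 for Mbd2, with no call in either.

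Lists of differentiated lineages also held no call. The 21 trophectoderm genes had a median of 0.24 and reached 0.91 for Cdx2, the trophectoderm regulator, which read 5.66 with LIF in EBRTcH3 and 5.26 to 5.48 in the rescues, and 9.47 and 7.78 to 8.23 without LIF. The 18 genes of gastrulation mesoderm had a median of 0.27 and reached 0.93 for Kdr, the receptor of vascular endothelial growth factor. The 48 imprinted genes had a median of 0.10, between -0.59 for Kcnq1ot1 and 0.53 for Sfmbt2, and the 26 germline genes silenced by promoter methylation a median of -0.05, between -0.74 for Ddx4 and 0.99 for Smc1b. The lowest list median was that of the 2-cell-like state, -0.44 over 11 genes, and the highest that of gastrulation mesoderm.

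Whether the difference between EBRTcH3 and the rescues changed with LIF was tested with an interaction term. No gene passed limma's adjusted test, while 1568 had an unadjusted p under 0.05. The genes with the smallest p-values included transcripts that read higher in EBRTcH3 without LIF and transcripts that read higher in the rescues without LIF. Zscan4c, a zinc-finger gene of the 2-cell-like state that a small share of ESCs enters, had the smallest adjusted p among the named ones, 0.0506. It read 5.92 with LIF in EBRTcH3 and 5.50, 5.18 and 5.41 in the rescues, but 5.20 and 6.98, 7.16 and 7.05 without LIF. Zscan4f read 5.74 and 5.76 in EBRTcH3, and 5.56 to 6.09 with LIF and 7.79 to 8.00 without in the rescues (interaction adjusted p = 0.152).

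The 11 tested genes of the 2-cell-like state averaged 5.01 without LIF in EBRTcH3 and 5.86 to 5.97 in the rescues, and 4.94 and 4.81 to 5.06 with LIF. The deltaMBD line, at 7.33 for Zscan4c and 7.77 for Zscan4f without LIF, was with the rescues. The empty vector, deltaCC and doubly deleted lines read 5.35 to 5.85 and 5.98 to 6.50.

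In the other direction, Cer1, a secreted Nodal and BMP antagonist of endoderm, read 4.43 with LIF in EBRTcH3 and 4.26 to 4.43 in the rescues, but 6.09 and 4.53 to 4.71 without LIF. Fgf10, a fibroblast growth factor of mesenchyme, read 6.10 without LIF in EBRTcH3 and 4.57 to 4.75 in the rescues. Prdm6, a repressor in smooth muscle precursors, read 7.42 and 5.10 to 5.60, Unc5c, a netrin receptor, 6.47 and 4.75 to 5.08, and Vstm2b 7.72 and 6.41 to 6.47. Beside these genes, the EBRTcH3 array without LIF had a mean of 8.75 over 21 trophectoderm genes, against 8.21 to 8.61 in the rescues, of 7.25 against 7.08 to 7.13 over 23 endoderm genes, and of 9.51 against 9.57 to 9.78 over 26 pluripotency genes; their part in these differences was not tested. In all 5 the EBRTcH3 array without LIF was above the other 7 derived lines, and with LIF EBRTcH3 was within 0.16 of the mean of the rescues (interaction adjusted p = 0.152 for each, limma). Each of these contrasts rests on 1 EBRTcH3 array. Nmnat2 and Slc23a1 were above the rescues with LIF in EBRTcH3, by 0.84 and 1.76, and differed by -0.23 and 0.09 without. Irak3 changed sign, from 0.47 with LIF to -0.58 without, where EBRTcH3 read 7.99 and the rescues 8.54 to 8.62 (interaction adjusted p = 0.155, limma).

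**Figure D5:**
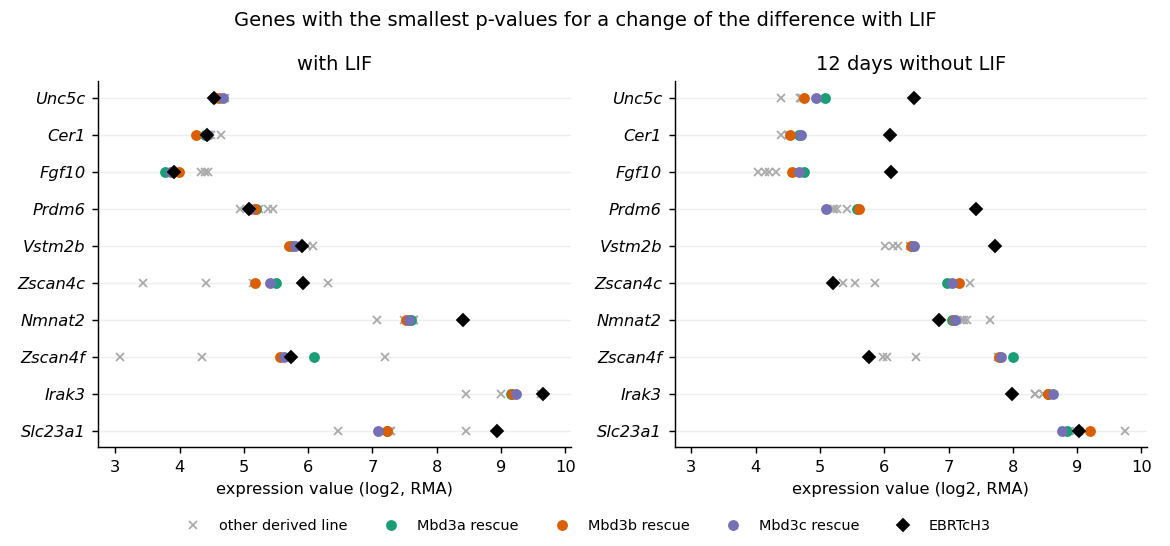
Log2 expression value (x axis) of the 10 genes named for the interaction, in every array with LIF (left) and without (right); diamonds are EBRTcH3, coloured circles the rescues and crosses the other 4 derived lines. Without LIF the diamond is to the right of every other point for Unc5c, Cer1, Fgf10, Prdm6 and Vstm2b, and to the left of every other point for Zscan4c and Zscan4f; no gene passed the interaction test.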

How the data were processed

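The values are log2 signals of 16 Affymetrix arrays, deposited by the authors after RMA. The submitters' processing notes name the affy package for this step. Tool versions, genome build and the grouping of probes are not stated in what was used here. Per the labels, total RNA was labelled with a whole-transcript kit. Of 65770 probe sets, 30439 carried 1 gene symbol, 2146 several and 33185 none; the probe set with the highest mean stood for each of 30102 genes, named through RefSeq. Genes of chromosomes X (1826) and Y (72) and unplaced genes (312) were left out. A gene was tested if it lay above the 40th percentile of its array on at least 2 of the 8 arrays.

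Each difference came from a linear model (limma 3.58.1, R 4.3.3) that held the LIF condition as a block (5 residual degrees of freedom), moderated by eBayes and adjusted with the Benjamini-Hochberg method; the script was tested on simulated data. For region centring, each array's median deviation within a chromosome, the chromosome 14 stretch or the snoRNA block was subtracted. Genes were named as the 12 called genes, with EBRTcH3 above all 3 or below all 3 rescued arrays in both conditions, that had the largest difference on each side outside chromosomes 8 and 14, the 4 largest such genes per side on each of those 2, called list members and, for the interaction, the 5 smallest p-values per side. Predicted genes and small RNAs were counted but not named, apart from those said in the text to have been chosen after their values were seen. The members and lists were chosen with earlier results of these data known. Each line has 1 array per condition, and the number of arrays limits the precision.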

Additional observations from a re-analysis of the deposited data

Results flagged for a closer look

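Of 48 checks of the spread of the 6 rescued arrays, each centred on its condition, 1 had an array far from the others: Cemip2 in the Mbd3c rescue with LIF, at 7.75, whose gap to the next array took 0.631 of the whole range, above Dixon's critical value for 6 samples. Chance flags about 1 in 20 such groups. No gene passed the test for a difference that changes with LIF.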

How the results depend on the processing

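The 258 calls became 0 without the LIF term (967 genes with an unadjusted p under 0.05), 127 on line means, 1 line against 3, 134 with each chromosome centred (129 of them among the 258), 15 with array weights, 495 with a trended robust prior and 51 at 2-fold or more. Among alternatives chosen after seeing the data, the count was 3 with each region centred (2 higher, 1 lower) and 23 without chromosome 8, the chromosome 14 stretch and the snoRNA cluster. Leaving out 1 array or 1 line gave 0 to 192 calls. Leaving out an array or a line could not reverse any of the 258, because EBRTcH3 lay on the same side of every rescued array. In the region-centred fit 213 of the 258 kept their direction. The others were genes of the snoRNA block at or above its median, which centring on that median sets at 0 or above. The count stayed within 1.5 times, from 189 to 361, with the line as a random block, no signal filter, the 60th percentile filter, probe set means, X and Y genes, quantile normalization and identical values counted once. The random block took the arrays of a line as correlated at -0.0633, so it gave no guard against counting them as independent. The interaction calls were 1 with the trended robust prior and 0 to 4 without 1 rescued array, the 4 being without Mbd3a with LIF. The rescues against the empty vector line gave 2962 calls with the line as a random block and 518 to 800 without 1 line. The chromosome 8 median was -0.177 without LIF, and the chromosome 14 median -0.0867 with LIF. No named gene changed direction while past the threshold. Condition paired the arrays as a block, and replicate numbers offered no further pairing, since every group has 1 array. Low signal compresses the differences of dim genes.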
